A study of Mus musculus with 3 samples.

Results

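The genes described here encode the enzymes that attach ubiquitin to proteins and remove it again. They were taken by gene symbol, with no measured value used: ubiquitin-activating enzymes (Uba1 to Uba7, Ube1), ubiquitin-conjugating enzymes (Ube2), ligases of the Ube3, Ube4 and Nedd4 types, cullins, F-box proteins (Fbxo, Fbxl, Fbxw), ubiquitin-specific proteases (Usp), ubiquitin C-terminal hydrolases (Uch) and the modifier Nedd8. Of 69 such symbols on the array, 46 had a spot with a value on all 3 arrays, of 3462 genes measured in that way. They comprise 2 activating enzymes, 13 conjugating enzymes, 3 ligases, 4 cullins, 9 F-box proteins, 14 ubiquitin-specific proteases and Nedd8, and no hydrolase was analysed here.

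RNA of bone marrow, as the labels name it, came from pulverized leg and upper-arm bones of C57BL/6 mice, and every animal had been castrated at 7 weeks, the controls included. Testosterone was given to 1 mouse of each pair and placebo to the other, as a pellet of 12.5 mg with a release time of 60 days; treatment lasted 4 weeks and age at collection was 17 weeks. Each of 3 spotted two-colour arrays, T1, T2 and T3, set the testosterone mouse of a pair against its placebo mouse (n = 3 pairs). Testosterone carried Cy5 on T1 and T3 and Cy3 on T2. Every value below is a log2 ratio of testosterone to placebo within a pair, so 0 means equal signal; the log base is inferred, and the direction is likely but not settled, since its basis is that the study calls testosterone the experimental channel and placebo the control channel. Intact mice were not analysed here, so the comparison is one of replacement against its lack. Only ratios were deposited in the table used, so the level of a gene in either mouse is unknown.

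Ubiquitin is first activated by an E1 enzyme, then handed to an E2 conjugating enzyme, and finally joined to a target protein with the help of an E3 ligase. Cullins are the scaffolds of the largest ligase family, and in its ligases built on Cul1 F-box proteins choose the target. Deubiquitinases remove ubiquitin again. In bone marrow this system sets the turnover of cell cycle regulators and of signalling proteins in dividing blood precursors.

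Most of the 46 genes differed little between the testosterone and placebo mice. By limma with Benjamini-Hochberg adjustment over all 3462 genes, 2 rose with testosterone, Uba6 and Usp45, 0 fell and 44 did not pass the threshold of 0.05. Over all genes measured, 1.68% rose (58) and 3.24% fell (112); after median centring and scaling of the arrays the split was 204 against 106, without T2 it was 1 against 34, without T3 it was 1 against 32, and with the sign of T2 turned 0 genes passed either way (8 against 11 at an unadjusted p under 0.05). At an unadjusted p under 0.05, 6 of the 46 were above 0 and 5 below, against a background of 12.0% above and 16.1% below (416 and 556 genes, or 548 and 331 after median centring). Of the 46 means 15 were above 0 and 31 below, and of all 3462 means 1300 were above and 2162 below. The median of the 46 means was -0.067, against -0.071 over all genes, and the gene means lay between -0.34 (Nedd4) and 0.52 (Usp45). With the sign of T2 turned these genes had 0.15 and 0.081, so each order of means given below holds for the deposited signs only. In bulk RNA, fewer cells of a type and less RNA per cell cannot be told apart in these values.

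**Figure D1:**
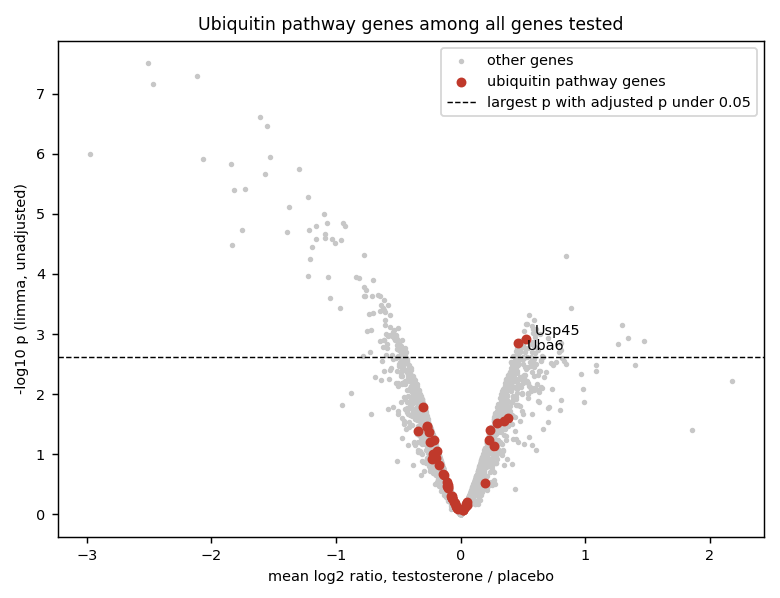
Mean log2 ratio of testosterone to placebo (x axis) against -log10 of the unadjusted limma p (y axis) for 3462 genes, with the 46 ubiquitin pathway genes in red and the other genes in grey. Uba6 and Usp45 lie above the dashed line, which marks the largest p whose adjusted value is under 0.05; the other 44 lie below it.

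Uba6 encodes an activating enzyme for ubiquitin that also activates the ubiquitin-like protein FAT10. Its ratios were 0.47 on T1, 0.48 on T2 and 0.44 on T3. All 3 pairs were higher with testosterone and nearly equal to each other. The mean of 0.46 ± 0.023 (SD, n = 3) is 1.38-fold, with a 95% interval from 0.24 to 0.68 and an adjusted p of 0.0467. A further spot of Uba6 had no value on any array, so the result rests on 1 spot.

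Usp45 encodes a ubiquitin-specific protease that has been linked to DNA repair through removal of ubiquitin from Ercc1. Its ratios were 0.36 on T1, 0.66 on T2 and 0.55 on T3, higher with testosterone in every pair. The mean was 0.52 ± 0.15 (SD, n = 3), or 1.44-fold, with a 95% interval from 0.28 to 0.77 and an adjusted p of 0.045. A further spot of Usp45, without a value on T2, read 0.12 on T1 and 0.34 on T3, on the same side but lower than the first on both arrays.

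Both calls lie close to the threshold. Tested spot by spot over 6039 spots, neither passed (adjusted p = 0.0508 for Usp45 and 0.0521 for Uba6), and with its partial spot averaged in, Usp45 had an adjusted p of 0.061. Without T2 the adjusted p was 0.216 for Uba6 and 0.223 for Usp45, without T3 it was 0.273 for each, and with the sign of T2 turned it was 0.999 for each (means of 0.14 for Uba6 and 0.081 for Usp45), while the means without a single array stayed between 0.45 and 0.60.

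**Figure D2:**
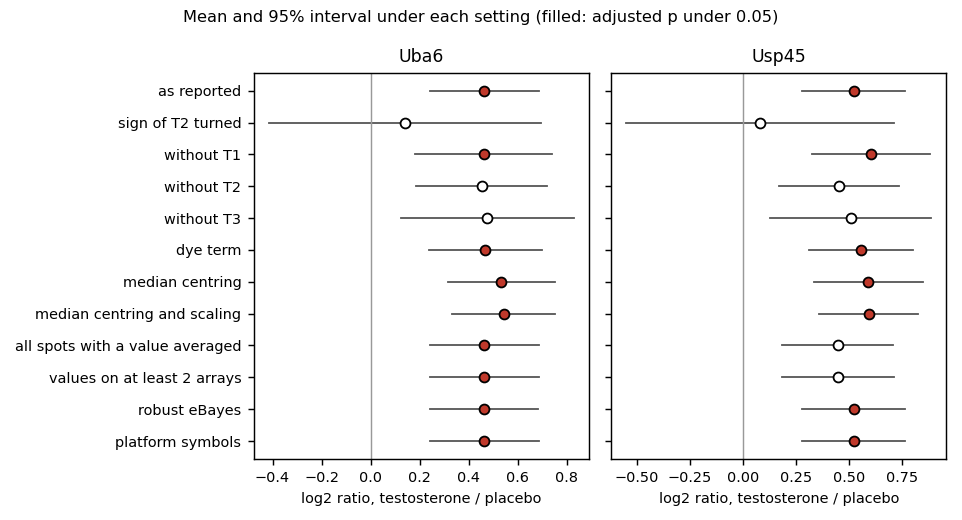
Mean log2 ratio of testosterone to placebo (x axis) with its 95% interval for Uba6 and Usp45, as reported (top) and under 11 alternatives; filled points have an adjusted p under 0.05. Apart from the row with the sign of T2 turned, the means of Uba6 lie between 0.45 and 0.54 and those of Usp45 between 0.45 and 0.60.

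Promoters are shown for the members of smallest p on either side of 0 for which the RefSeq table of build GRCm38.p6 holds a sequence, Usp45 and, below 0 but without a call, the conjugating enzyme Ube2d1. Each is 300 bases long, 5′ to 3′. Usp45 lies at chr4:21776020-21776319 on the + strand and Ube2d1 at chr10:71285213-71285512 on the - strand. Capitals mark matches, on either strand, to 5 short motifs: the half-site of the androgen and glucocorticoid receptors (TGTTCT), the GC box (GGGCGG), the CCAAT box (CCAAT), the core of ETS factors (CCGGAAG) and the cyclic AMP response element (TGACGTCA). In the sequences printed no matches overlap.
Usp45: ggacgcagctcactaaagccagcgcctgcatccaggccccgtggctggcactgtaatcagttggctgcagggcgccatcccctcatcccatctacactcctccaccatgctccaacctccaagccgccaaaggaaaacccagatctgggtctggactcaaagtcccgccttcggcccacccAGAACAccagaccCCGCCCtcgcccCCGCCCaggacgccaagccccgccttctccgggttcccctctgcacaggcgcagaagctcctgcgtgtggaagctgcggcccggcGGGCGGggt
Ube2d1: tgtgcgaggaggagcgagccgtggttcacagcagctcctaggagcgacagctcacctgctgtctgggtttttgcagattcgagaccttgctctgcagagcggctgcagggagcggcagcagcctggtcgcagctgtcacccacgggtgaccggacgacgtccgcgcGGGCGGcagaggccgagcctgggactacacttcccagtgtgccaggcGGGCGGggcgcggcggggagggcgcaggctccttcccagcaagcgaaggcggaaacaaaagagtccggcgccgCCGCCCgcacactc

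The Usp45 promoter held 1 half-site and 3 GC boxes, and that of Ube2d1 held 3 GC boxes and 0 half-sites. Promoters were listed for 35 of the 46 genes (48 promoters, since some genes have several). The half-site occurred in 10.4% of these, in 12.3% of the 3615 promoters of all measured genes and in 19.0% of the 32851 promoters in the table. GC boxes occurred in 66.7% of the member promoters, 63.0% of those of measured genes and 35.7% of the whole table. The ETS core was found in 31.2%, 18.5% and 8.86% of these groups, the CCAAT box in 20.8%, 38.2% and 37.4%, and the cyclic AMP element in 2.08%, 3.26% and 1.79%. A match describes the letters and does not show that a factor binds.

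The other activating enzyme, Uba7, starts the conjugation of the interferon-induced modifier ISG15. Uba7 had 0.19 on T1, -0.22 on T2 and -0.19 on T3, so T1 stood on the other side of 0 from the other arrays. Its mean of -0.072 ± 0.23 (SD, n = 3) did not pass (adjusted p = 0.706), and its spots disagreed in sign, with means of -0.20 and 0.053. Ube2l6, the conjugating enzyme of the same ISG15 cycle, had the highest mean of its class with the deposited signs, at 0.058, 0.72 and 0.35 for T1, T2 and T3. This mean of 0.38 ± 0.33 (1.30-fold) missed the threshold over all genes (adjusted p = 0.127), although both of its spots were above 0 on every array, at means of 0.37 and 0.39. Without T1, Ube2l6 passed (0.54, adjusted p = 0.00631), and with the sign of T2 turned its mean was -0.10. Usp18, the protease that removes ISG15, had 0.094, -0.32 and 0.057 on T1, T2 and T3 (mean -0.057, adjusted p = 0.775). The ISG15 enzymes thus had no common direction.

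Of the 13 conjugating enzymes, 0 passed in either direction, 4 had a mean above 0 and 9 below, and the class median was -0.039. Over all 3462 genes, 1300 means were above 0 and 2162 below. Ube2d1, of a family that works with many RING ligases, had -0.21 on T1, -0.32 on T2 and -0.38 on T3. It was below 0 in every pair, with a mean of -0.30 ± 0.086 (1.23-fold lower, n = 3) and the smallest adjusted p of the class, 0.107. Its relatives Ube2d2a (0.11, -0.046 and -0.18; mean -0.039) and Ube2d3 (0.12, 0.066 and -0.096; mean 0.031) lay on both sides of 0. The genes of this family are close in sequence, and whether the spotted probes tell them apart was not tested. Ube2d3 combined spots that disagreed: means of -0.067 and -0.23 at its first and second spot, against 0.39 at the third.

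Ube2w, which places ubiquitin on the N terminus of proteins, had -0.11, -0.44 and -0.27 on T1, T2 and T3 (mean -0.27 ± 0.16, adjusted p = 0.152). Another Ube2w spot, with a value on T1 only, read 0.014. Ube2n, which builds the chains used in inflammatory and DNA damage signalling, averaged -0.26, -0.23 and -0.16 (mean -0.21 ± 0.049, adjusted p = 0.193). Its spots were less even than this average. The first read -0.324, -0.068 and -0.283, and the second -0.188, -0.385 and -0.038. For Ube2q1 the values were -0.023, -0.43 and -0.28 (mean -0.24 ± 0.21, adjusted p = 0.203). These 3, with Ube2d1 and Ube2q2 (mean -0.10), were the 5 conjugating enzymes below 0 in all pairs, while Ube2l6 alone was above 0 in all. The remaining 5 single-spot genes were close to 0 in the mean: Ube2g2 of endoplasmic reticulum quality control at 0.051, Ube2h at 0.018, the NEDD8 carrier Ube2f at -0.026, Ube2l3 at -0.035 and Ube2e3 at -0.067.

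**Figure D3:**
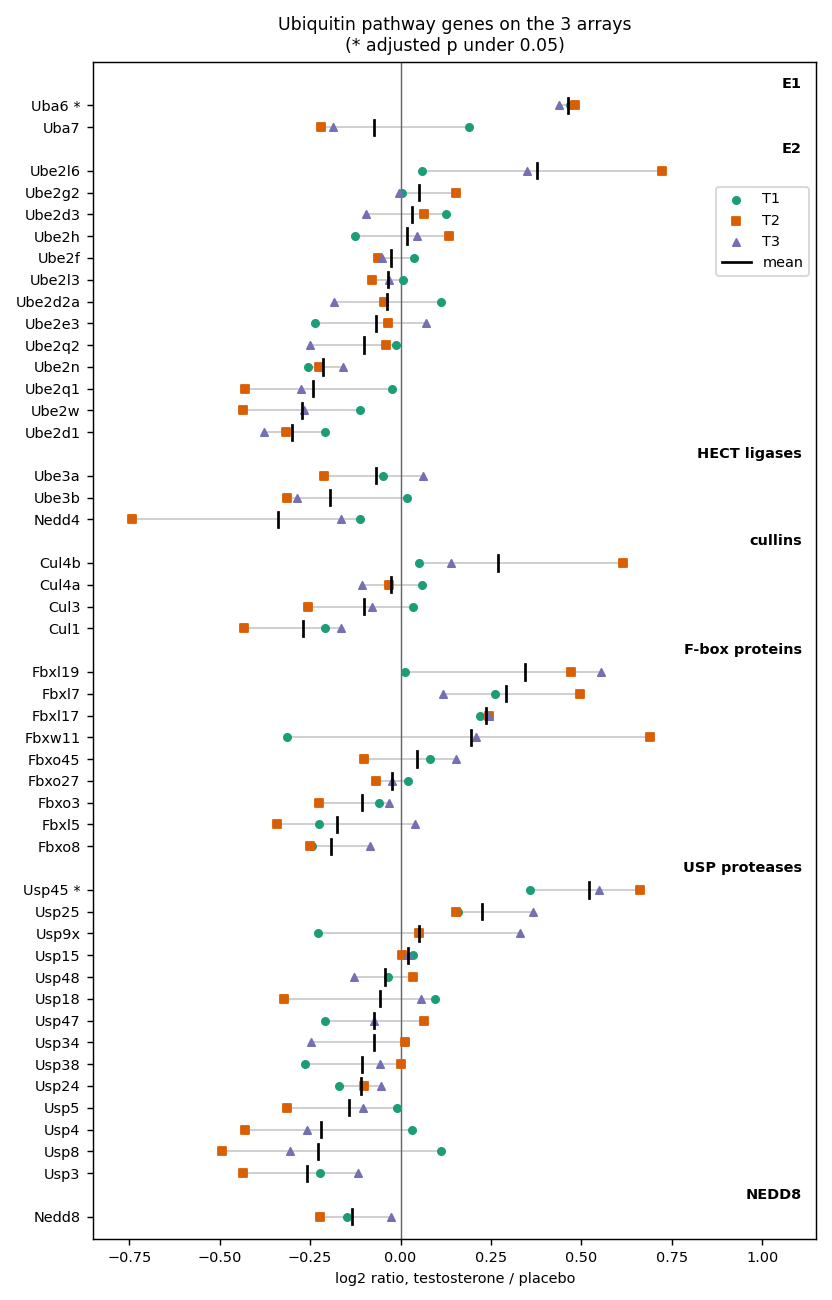
Log2 ratio of testosterone to placebo (x axis) of each of the 46 genes on T1 (circles), T2 (squares) and T3 (triangles), grouped by class, with the mean as a black bar. Uba6 and Usp45, marked with an asterisk, lie above 0 on all 3 arrays and apart from most genes, and T2 has the largest absolute ratio of the 3 arrays for 29 of the 46. T2 also spread widest over all genes measured (SD 0.44, against 0.31 on T1 and 0.31 on T3).

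All 3 ligases measured were of the HECT type, which take ubiquitin onto themselves before passing it on, and all 3 means were below 0 with 0 calls. Among all 3462 genes, 2162 means were below 0. Nedd4, a ligase for membrane proteins, had the lowest mean of all 46 genes with the deposited signs, at -0.11, -0.74 and -0.17 for T1, T2 and T3. T2 carried most of this value, and the mean of -0.34 ± 0.35 (1.27-fold lower, n = 3) had an adjusted p of 0.163. Nedd4 passed without T1 (-0.45, adjusted p = 0.0267) and with a dye term (-0.44, adjusted p = 0.0458, where 5.92% of all genes fell), and had a mean of 0.15 with the sign of T2 turned. Of its other spots, both with a value on T1 only, the readings were 0.25 and 0.041, on the opposite side of 0. Ube3b had 0.017, -0.31 and -0.29 (mean -0.19, adjusted p = 0.28) and Ube3a, the ubiquitin ligase of the imprinted Angelman syndrome locus, had -0.049, -0.21 and 0.061 (mean -0.067, adjusted p = 0.696).

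The cullins showed no common direction. Cul1, the scaffold on which F-box proteins are mounted, had -0.21 on T1, -0.43 on T2 and -0.17 on T3, below 0 in each pair (mean -0.27 ± 0.14, 1.20-fold lower, adjusted p = 0.148). Cul4b had 0.050, 0.62 and 0.14, above 0 in each pair but mainly on T2 (mean 0.27 ± 0.30, adjusted p = 0.219). Its close relative Cul4a, which shares the adaptor Ddb1, had 0.060, -0.031 and -0.11 (mean -0.026, adjusted p = 0.885; a further spot read -0.038 on T2 and 0.23 on T3), and Cul3, which works with BTB proteins, had 0.033, -0.26 and -0.080 (mean -0.10, adjusted p = 0.548). Nedd8, the small protein whose attachment activates cullins, was below 0 in every pair at -0.15, -0.22 and -0.027, with a mean of -0.13 ± 0.099 over 3 spots (adjusted p = 0.407).

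Among the 9 F-box proteins 0 passed, and the class median was 0.045. It was -0.0015 without T2, -0.0095 without T3, and 0.11 with median centring or 0.13 with scaling as well. The leucine-rich Fbxl genes held the highest means: Fbxl19 with 0.012, 0.47 and 0.55 for T1, T2 and T3 (mean 0.34 ± 0.29, adjusted p = 0.134), and Fbxl7 with 0.26, 0.50 and 0.12 (mean 0.29 ± 0.19, adjusted p = 0.141). Another Fbxl7 spot, with a value on T1 only, read 0.026. Fbxl17, which acts in quality control of BTB protein dimers, averaged 0.22, 0.24 and 0.24 (mean 0.24 ± 0.015, adjusted p = 0.158). The 3 spots behind this mean differed, with means of 0.49, 0.27 and -0.046. Fbxl5, the iron sensor that directs the degradation of iron regulatory protein, was the exception of the 4 Fbxl genes at -0.23, -0.34 and 0.041 (mean -0.18).

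The 4 Fbxo genes had a median of -0.065, with Fbxo8 lowest at -0.25 on T1, -0.25 on T2 and -0.084 on T3 (mean -0.19 ± 0.095, adjusted p = 0.242). Fbxo3 (-0.11), Fbxo27 (-0.024) and Fbxo45 (0.045) were nearer to 0 in the mean. Fbxw11, a beta-TrCP protein that recognises phosphorylated targets such as beta-catenin, had the widest spread of all 46 genes, with -0.32, 0.69 and 0.21 for T1, T2 and T3 (mean 0.19 ± 0.50, adjusted p = 0.489). Without T1, Fbxw11 and Fbxl19 passed as higher, as did Ube2l6, Uba6 and Usp45, and Nedd4 and Usp8 passed as lower. In that setting 5 of 46 were higher (10.9%) and 2 lower (4.35%), while 8.38% of all genes rose and 9.62% fell.

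Genomic clones as probes stood apart from the other spots. Among named spots with a value on all arrays, 116 had a genomic clone as the listed sequence, and 109 of these (94.0%) had a mean above 0, with a median of 0.35, against 34.6% and a median of -0.084 for the other 4438. The spot of Fbxl7 and the spot of Fbxl17 with a mean of 0.27 were of this kind, and no other of the 59 member spots was. The part of the probe type in these Fbxl values was not tested, and the split by probe type was made after the values were seen. The spots of Uba6 and Usp45 were not genomic clones.

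**Figure D4:**
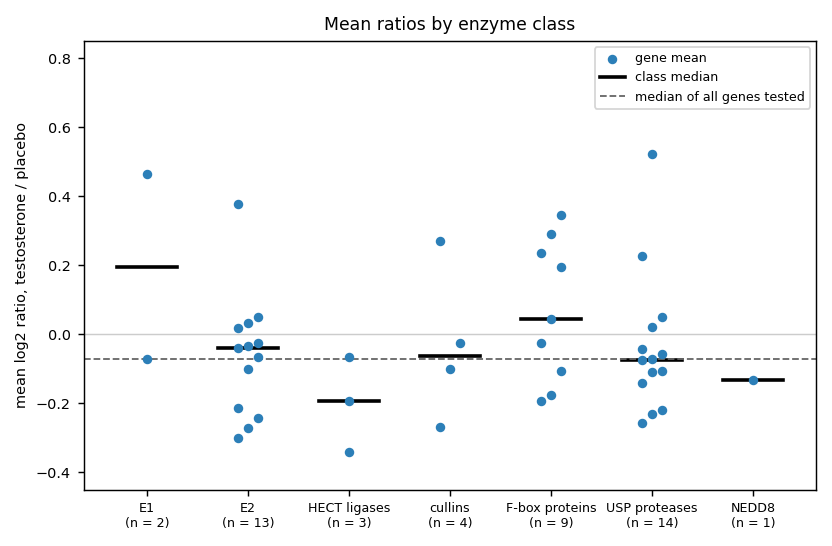
Mean log2 ratio of testosterone to placebo (y axis) of each gene by enzyme class (x axis, with n), with the class median as a black bar and the median of all 3462 genes as a dashed line. The HECT ligases lie below 0 (median -0.19, n = 3), the F-box proteins scatter around 0 (median 0.045, n = 9), and Usp45 lies apart from the other 13 proteases.

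In the 14 ubiquitin-specific proteases, 1 rose, Usp45, and 13 did not pass, with a class median of -0.074. Usp25, a protease of immune signalling, was the next highest at 0.16 on T1, 0.15 on T2 and 0.36 on T3 (mean 0.23 ± 0.12, adjusted p = 0.193). Another Usp25 spot, with a value on T3 only, read -0.11, on the opposite side of 0. With that spot averaged in, the mean of Usp25 was 0.15 (adjusted p = 0.352 by limma). The lowest was Usp3, which acts on ubiquitinated histones, with -0.22, -0.43 and -0.12, below 0 in every pair (mean -0.26 ± 0.16, adjusted p = 0.164). Usp8, which acts on receptors in endosomes, had 0.11 on T1 but -0.49 on T2 and -0.31 on T3 (mean -0.23 ± 0.31, adjusted p = 0.287), and passed as lower without T1. Usp4 had the same order of signs, with 0.032, -0.43 and -0.26 (mean -0.22 ± 0.23, adjusted p = 0.257).

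The other proteases were near 0. Usp24 had -0.17, -0.10 and -0.056 (mean -0.11 ± 0.058), Usp38 had -0.26, 0.0015 and -0.056 (mean -0.11 ± 0.14), and Usp15 had 0.034, 0.0040 and 0.022 (mean 0.020 ± 0.015). Another Usp15 spot, with a value on T1 only, read 0.24. Usp5, which takes apart free ubiquitin chains, had a mean of -0.14, and Usp34, Usp47, Usp48 and Usp9x lay between -0.074 and 0.051.

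Of the 10 genes with more than 1 spot, 4 had spots with means of opposite sign: Uba7, Ube2d3, Fbxl17 and Usp15. The 3 spot pairs with the same listed sequence (in Ube2n, Ube2q1 and Nedd8) differed by 0.021 to 0.094 in the mean, although those of Ube2n differed by up to 0.32 on an array. Spot pairs with different sequences, 13 in 8 genes, differed by 0.019 to 0.62, with a median of 0.16 and 6 pairs of opposite sign.

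**Figure D5:**
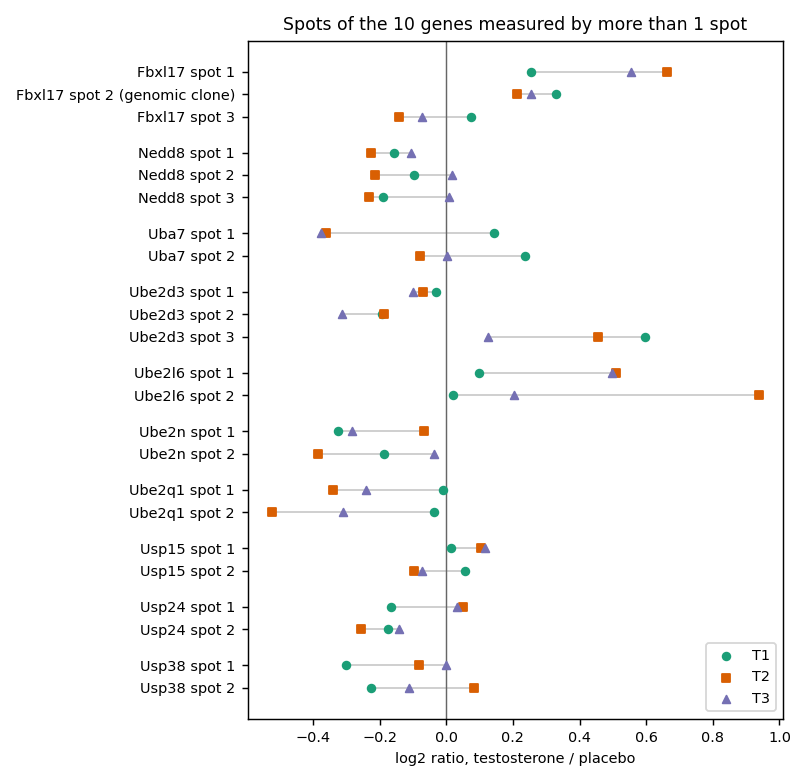
Log2 ratio of testosterone to placebo (x axis) on T1 (circles), T2 (squares) and T3 (triangles) at each spot of the 10 genes with more than 1 spot on all arrays. The spots of Ube2n have nearly equal means but differ by up to 0.32 on 1 array, and Ube2d3 and Fbxl17 each have a spot whose mean lies on the other side of 0 from the rest.

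Across the arrays, 9 of the 46 genes were above 0 on all 3 arrays, 13 below on all 3 and 24 mixed. Of all genes, 18.1% were above on all 3 and 33.9% below on all 3, so these counts (19.6% and 28.3% of the 46) lie near the background. The median of the 46 was 0.0055, -0.066 and -0.053 for T1, T2 and T3, and T2 spread widest (SD over genes 0.34, against 0.17 on T1 and 0.22 on T3). T2 was also the widest over all genes (SD 0.44, against 0.31 on T1 and 0.31 on T3). As a description over these 46 genes, which share arrays, Pearson's r was 0.75 between T2 and T3, 0.37 between T1 and T2 and 0.34 between T1 and T3 (0.73, 0.43 and 0.50 over all genes). For 10 genes T2 and T3 were below 0 and T1 above, and for 3 the reverse held. The share of all genes with either pattern was not counted. Of all 3462 genes, 1932 were below 0 on T1, 2187 on T2 and 2065 on T3.

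Of the 23 members without a spot on all arrays, 11 had a value on more than 1 array, 7 on 1 array and 5 on none. Fbxl12, an F-box protein of cell cycle inhibitor turnover, stood out with -0.99 on T1, -1.04 on T2 and no value on T3. When genes with values on at least 2 arrays were tested, Fbxl12 was 2.02-fold lower (mean -1.02, n = 2, adjusted p = 0.0108 by limma, where 2.59% of all genes fell), a larger difference than that of any of the 46; it was singled out after its values were seen. Of the 10 partly measured members in that test no other passed; among them Fbxo7 had -0.32 on T2 and -0.27 on T3, Usp19 had 0.18 on both T1 and T3, and Ube4b, a U-box ligase, had -0.15 on T1 and 0.29 on T3.

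Other genes of the ubiquitin system, taken from 9 lists of modifiers, ligase partners, further ligases and deubiquitinases, receptors and the proteasome, numbered 133, a few of them in more than 1 list. Of these 0 rose, 2 fell and 131 did not pass, beside the 3.24% of all genes that fell. Their median was -0.13, against -0.071 over all genes; without the proteasome it was -0.11 over 102 genes. The genes that fell were Syvn1, a ligase of endoplasmic reticulum quality control (-0.68, -0.47 and -0.36; mean -0.50 ± 0.16, 1.42-fold lower, adjusted p = 0.0467), and the immunoproteasome subunit Psmb8 (-0.54 ± 0.13, adjusted p = 0.0409). Neither passed with median centring (adjusted p = 0.062 for Syvn1 and 0.0528 for Psmb8), without T2 (0.223 and 0.213), without T3 (0.257 and 0.273) or with the sign of T2 turned (0.999 each). Among 18 cullin partners and COP9 signalosome subunits 0 passed and 16 means were below 0 (median -0.15), with Cops7a at 0.36 ± 0.035 and Kctd5 at -0.35 ± 0.052 (adjusted p = 0.0665 and 0.0704). Beside this, 2162 of all 3462 means were below 0.

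Within the remaining lists 0 genes passed, apart from Syvn1 among 33 RING and other ligases (median -0.096; Trim28 at -0.57) and Psmb8 among 33 proteasome genes (median -0.19; Psmb10 at -0.52). The 10 genes of the anaphase-promoting complex had a median of -0.14, led by Anapc5 (-0.36) and Cdc20 (-0.31), the 3 other HECT ligases -0.18 (Trip12 -0.19 and Huwe1 -0.18) and the 19 other deubiquitinases -0.13 (Eif3h -0.42 and Eif3f -0.37, subunits of a translation factor with the same protein fold). The 6 ubiquitin-like modifiers had a median of -0.11 (Fau -0.32 and Sumo2 -0.28), the 9 receptors and shuttles -0.12 (Faf2 -0.28 and Stam 0.22) and the 5 genes of SUMO and similar conjugation 0.063 (Atg7 0.17 and Ufc1 -0.14).

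Markers of cell types also differed between the mice of a pair. Of 9 measured B-lineage markers 7 fell, with medians of -2.13, -2.24 and -1.65 for T1, T2 and T3, wider than the shift of any of the 46 genes. Early-response and heat-shock genes (14 measured, 0 higher and 1 lower) had medians of -0.056, 1.08 and 0.86, below 0 on T1 and above on T2 and T3. Of the 46 genes, 3 had these signs and 10 had the reverse. The same count over all genes was not made, and most of all genes lay below 0 on T2 and T3. Muscle markers (6 genes) had -0.018, -0.84 and -0.43, osteoblast and matrix markers (5) -0.26, -1.05 and -0.16, erythroid markers (6) 0.11, 0.38 and 0.33, neutrophil markers (4) 0.64, 0.15 and -0.11, and monocyte and macrophage markers (8) 0.25, 0.11 and 0.12. The part of these cell types in the ratios of the ubiquitin genes was not tested. Of the markers outside the B lineage, Col6a1 and Klf2 alone passed, both lower.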

How the data were processed

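The authors' deposited values are signed log2 ratios, 1 per spot and array, from aminoallyl cDNA coupled to Cy3 or Cy5, per the labels' protocols; base 2 is inferred from their range (-3.37 to 4.47). In the values, each consecutive print block is centred near 0. For scanner, background correction, normalization method and filter, the sources used here say nothing. The number of arrays limits the precision. Values were used as deposited. T2 kept its sign, since it correlated positively with both other arrays.

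Of 11552 spots, 8050 had 1 gene, 672 several and 2830 none. Entrez IDs matched 7880 spots to 5707 genes of the RefSeq table (GRCm38.p6). The spots of a gene that had values on all 3 arrays were averaged (854 genes had more than 1). Means of 3462 genes were tested against 0, two-sided, by limma 3.58.1 (lmFit, eBayes; R 4.3.3). A Benjamini-Hochberg adjusted p under 0.05 is called. No label says whether the pairs were processed on separate days, so p-values speak for these 3 pairs only. In eBayes the spread of each gene between the pairs is drawn towards a value shared by all genes. The p-values and intervals therefore do not rest on the spread of the gene alone. Uba6, with an SD of 0.023, had a standard error of 0.0956, and Fbxl17, with an SD of 0.015, had 0.0954. For Fbxw11, with an SD of 0.50, it was 0.175. The procedure was tested on simulated data.

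Named by rule are members that passed, in each class the 4 of smallest p and those of highest and lowest mean, all of classes with at most 4, members with more than 1 spot on all arrays, and in each list the genes that passed and the 2 of smallest p. The remaining members are named to account for all 46, or for a call lost or gained under an alternative. The members, lists and tests were chosen with earlier results of these data known, and the comparison of genomic clones was added after the data were seen. The alternatives were the sign of T2 turned, each array left out, a dye term, median centring with and without scaling, other ways of averaging and filtering spots, robust eBayes, a threshold of 0.10, spots tested singly and platform symbols.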

Additional observations from a re-analysis of the deposited data

How the results depend on the processing

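The count of 2 genes higher and 0 lower was the same with median centring, with centring and scaling, with robust eBayes, with platform symbols and at a threshold of 0.10. At 0.10, however, 236 of all 3462 genes rose and 262 fell, against 58 and 112 at 0.05. It was 0 higher with the sign of T2 turned and with spots tested one by one, and 1 higher when all spots with a value were averaged or when values on at least 2 arrays sufficed; this last setting also gave 1 lower (Fbxl12). A dye term gave 1 lower (Nedd4). Leaving out an array gave 0 (without T2 or T3) to 5 higher (without T1) and 0 to 2 lower. Over all genes, 58 rose and 112 fell as reported, 42 and 58 after median centring, 204 and 106 with scaling as well, 180 and 205 with a dye term, 290 and 333 without T1, 1 and 34 without T2, 1 and 32 without T3, and 0 and 0 with T2 turned (8 and 11 at an unadjusted p under 0.05).

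The median of the 46 genes was 0.017 with T2 turned (0.0053 over all genes), 0.0027 after median centring and 0.0061 with scaling, where all genes stood at -0.0010 and -0.00027. Class medians moved with T2 turned for the HECT ligases (0.075), the proteases (0.025) and Nedd8 (0.016). With centring they moved to 0.031 for the conjugating enzymes and -0.0040 for the proteases, with scaling as well to 0.022 and -0.024, and with single spots to 0.053 for the activating enzymes. For the F-box proteins the median of 0.045 was -0.0015 without T2 and -0.0095 without T3, against 0.11 with centring and 0.13 with scaling. Of the other ubiquitin system genes, 2 were called as reported, 0 with T2 turned, 0 with median centring, 9 with a dye term, 12 at a threshold of 0.10 and 0 to 12 when an array was left out. The causes of these shifts were not tested. Each array is already the ratio within a pair, so testing the mean ratio against 0 was the paired comparison. With 1 group, no comparison between groups was possible. Spot brightness was not analysed here, so signal over background is unknown.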
